A study of Mus musculus with 16 samples.

Results

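The cyclin-dependent kinase (CDK) inhibitors of the INK4 and CIP families are 7 genes in the mouse: the CIP genes Cdkn1a (p21), Cdkn1b (p27) and Cdkn1c (p57), and the INK4 genes Cdkn2a (p16INK4a and p19ARF), Cdkn2b (p15), Cdkn2c (p18) and Cdkn2d (p19INK4d). Members were chosen by gene name from the table of raw counts, which listed all 7 among 24116 genes, and all 7 passed the filter on low counts that left 13790 tested genes. A progenitor enters the cell cycle when D-type cyclins with CDK4 or CDK6, and then E- and A-type cyclins with CDK2, phosphorylate the pocket proteins and release the E2F factors. INK4 proteins bind CDK4 and CDK6 and keep D-type cyclins off them, while CIP proteins bind whole cyclin-CDK complexes and act mostly on those of CDK2. Dendritic cells arise from dividing progenitors in the bone marrow and, for classical dendritic cells, from precursors that still divide in the spleen, and plasmacytoid dendritic cells leave the marrow as largely non-dividing cells.

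Spleens of CKO and WT mice were sorted into 4 subsets of dendritic cells, and 2 libraries were sequenced per subset and genotype, 16 in all. The design text names Etv6, a transcriptional repressor of the ETS family, as the deficient gene in CKO. The subsets are labelled Dec205 (a receptor of the cross-presenting classical dendritic cell, cDC1), pDC (plasmacytoid dendritic cell), and Esamlo and Esamhi (ESAM-low and ESAM-high classical dendritic cells of the cDC2 kind). The labels give no strain, age, Cre driver or deleted exon, and nothing in them ties the 2 libraries of a group to separate animals. The p-values of the fit on all 16 libraries rest on the spread between the 2 libraries of a group. That spread is pooled over the 8 groups and may be technical. Separation of 2 libraries from 2 others is frequent without a difference, and its share over all tested genes was not counted.

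The libraries held 14434287 to 20709265 counts, which put 3 counts at 0.143 to 0.228 CPM (counts per 1000000 counts, on TMM-scaled library sizes). Etv6 had 205 and 219 CPM in Dec205 CKO and 337 and 375 CPM in Dec205 WT (edgeR quasi-likelihood test, adjusted p = 0.000996), and it was not called in pDC (363 and 322 CPM in CKO, 346 and 352 CPM in WT), Esamlo (370 and 362 CPM in CKO, 426 and 512 CPM in WT) or Esamhi (390 and 434 CPM in CKO, 492 and 451 CPM in WT). Since the labels do not say which part of Etv6 is deleted, a count over the whole gene does not check the labels of these 3 subsets. All 8 CKO libraries held 114 to 355 CPM of the female-specific RNA Xist and all 8 WT libraries at most 1.44 CPM, while the Y-linked Ddx3y was the reverse, so sex and genotype coincide and cannot be told apart in any comparison of CKO with WT. Some markers followed the labels. The cDC1 receptor Xcr1 averaged 1667 CPM in Dec205 CKO and 1252 CPM in Dec205 WT and was at most 51.3 CPM in any other library. The pDC receptor Siglech averaged 5825 CPM in pDC CKO and 5548 CPM in pDC WT and was at most 6.82 CPM in any other library. Esam averaged 133 CPM in Esamhi CKO and 147 CPM in Esamhi WT, and at most 32.8 CPM in any other group. Lyz2, an ESAM-low marker, averaged 2860 CPM in Esamlo CKO and 2890 CPM in Esamlo WT, and at most 1029 CPM elsewhere. Other markers were shared. The cDC1 marker Clec9a averaged 104 CPM in pDC CKO and 126 CPM in pDC WT. The cDC2 marker Cd209a averaged 445 and 472 CPM there, above 178 and 263 CPM in Esamhi CKO and WT.

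The letters around the starts of 2 INK4 genes are shown. They are Cdkn2b, the member called between genotypes in the fit on all 16 libraries, and Cdkn2d, which was called higher in pDC than in each other subset in both genotypes. Etv6 belongs to the ETS family, whose members bind a core of GGAA, printed in capitals on either strand (GGAA or TTCC). The windows run from 250 bases before to 50 bases after the start of the gene in RefSeq (GRCm38.p6), 5′ to 3′ along the gene's strand. Gene positions given below are from GENCODE M21, whose start of Cdkn2d, at 21291407, is not the RefSeq start of this window. The Cdkn2b window lies at chr4:89310983-89311282 (minus strand) and the Cdkn2d window at chr9:21291160-21291459 (minus strand).
Cdkn2b: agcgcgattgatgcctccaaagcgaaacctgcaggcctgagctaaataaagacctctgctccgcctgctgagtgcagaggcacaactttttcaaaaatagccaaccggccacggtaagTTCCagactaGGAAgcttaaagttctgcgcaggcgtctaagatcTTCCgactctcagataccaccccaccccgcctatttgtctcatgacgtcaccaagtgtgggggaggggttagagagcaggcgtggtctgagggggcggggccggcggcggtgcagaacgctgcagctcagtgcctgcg
Cdkn2d: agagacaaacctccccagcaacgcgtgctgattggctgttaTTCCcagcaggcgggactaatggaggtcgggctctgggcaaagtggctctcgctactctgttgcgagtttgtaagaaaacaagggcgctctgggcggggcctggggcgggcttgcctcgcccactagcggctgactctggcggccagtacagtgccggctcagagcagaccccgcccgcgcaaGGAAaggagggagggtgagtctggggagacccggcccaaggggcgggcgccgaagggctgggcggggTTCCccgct
Each window held 3 matches to GGAA, which is also the median over all 32851 promoter windows of the genome, of which 95.98% held at least 1. The longer run CCGGAAGT, a preferred ETS site that contains the core, was in none of the 9 windows of the 6 members with an entry and in 3.887% of all windows. A match is only a description of the letters, and no match says only that these letters are not in this window.

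Between genotypes, Cdkn2b was the only member that edgeR called within a subset in the fit on all 16 libraries. Which members were called depended on the fit, as given below. Cdkn2b (gene ID 12579, chromosome 4, 89306299 to 89311039, minus strand, GRCm38) encodes p15, an INK4 inhibitor known as a target of transforming growth factor beta. In Dec205 it had 3.90 and 5.51 CPM in CKO, against 22.3 and 19.3 CPM in WT, from 76 and 85 counts in CKO and 294 and 285 counts in WT. Both CKO libraries lay below both WT libraries, and Cdkn2b fell 4.42-fold (log2 fold change -2.15, SE 0.41, n = 2 per group, edgeR adjusted p = 0.0101). It was the only one of the 7 members called in Dec205, where 6.78% of all tested genes were called and 3.34% were called lower. The call ended without Dec205 CKO replicate 1 (log2 fold change -1.91, edgeR adjusted p = 0.057) and when only the 4 Dec205 libraries were fitted (-2.12, edgeR adjusted p = 0.0755).

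Cdkn2b moved the other way in pDC, at a level near the lower limit of the data. It had 0.528 and 0.482 CPM in pDC CKO, from 10 and 9 counts, and no count in either pDC WT library. Set against 3 counts shared by the WT libraries, Cdkn2b was at least 6.47-fold higher in CKO, and edgeR called it (adjusted p = 0.011, n = 2 per group). It was the only one of the 7 members called in pDC, where 1.85% of all tested genes were called and 1.47% were called higher. The call ended without pDC WT replicate 1 (edgeR adjusted p = 0.0503) or replicate 2 (edgeR adjusted p = 0.0743), and with only the 4 pDC libraries fitted Cdkn2b did not pass the filter on low counts. The level of Cdkn2b in pDC CKO was below that in every library of another subset, where the lowest value was 0.813 CPM.

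In the cDC2 subsets Cdkn2b was lower in both CKO libraries than in both WT libraries without passing the test. Esamhi had 6.31 and 6.93 CPM in CKO and 13.5 and 17.6 CPM in WT (log2 fold change -1.23, SE 0.40, edgeR adjusted p = 0.336). Fitted on the 4 Esamhi libraries alone, the same fold change had an edgeR adjusted p of 0.00573, and DESeq2 gave 0.107. Esamlo had 0.813 and 1.30 CPM in CKO and 1.31 and 2.72 CPM in WT (log2 fold change -0.93, SE 0.44, edgeR adjusted p = 0.669). Averages over the subsets are not informative for Cdkn2b, since the fitted mean of 0.47 rests on the WT group without counts in pDC (edgeR adjusted p = 0.513).

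The effect of CKO on Cdkn2b differed between subsets. The joint test over the 4 subsets gave an edgeR adjusted p of 0.00906, and Cdkn2b was the 1 member of 7 called there, where 2.44% of all tested genes were called. In pairs, the effect in pDC differed from that in Dec205 (edgeR adjusted p = 0.00263), Esamhi (0.00893) and Esamlo (0.0183). The last of these did not pass without pDC WT replicate 2 (0.0594), pDC CKO replicate 1 (0.0522), Esamlo WT replicate 2 (0.0551) or Esamlo CKO replicate 1 (0.0704), nor with the replicate number as a block (0.0756). The effects in Dec205, Esamhi and Esamlo were not shown to differ from each other: Dec205 minus Esamlo was -1.22 (SE 0.60, edgeR adjusted p = 0.41), Dec205 minus Esamhi -0.91 (SE 0.56, edgeR adjusted p = 0.536) and Esamlo minus Esamhi 0.31 (SE 0.60, edgeR adjusted p = 1), all on the log2 scale. Over all tested genes, edgeR called 2.41% for Dec205 minus pDC, 1.18% for pDC minus Esamhi, 0.682% for pDC minus Esamlo, 1.53% for Dec205 minus Esamlo, 1.91% for Dec205 minus Esamhi and none for Esamlo minus Esamhi. Both directions together narrowed the span of Cdkn2b over the subsets: in CKO its group means ran from 0.505 CPM in pDC to 6.62 CPM in Esamhi, and in WT from 0 CPM in pDC to 20.8 CPM in Dec205.

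Markers of other cells also differed in the Dec205 libraries, where 6.78% of all tested genes were called. The summed level of 10 B cell markers was 363 to 649 CPM in CKO and 137 to 165 CPM in WT, with 3 genes called higher. That of 11 pDC markers was 727 to 800 CPM in CKO and 413 to 437 CPM in WT, with 7 called higher. That of 7 monocyte markers was 1936 to 2221 CPM in CKO and 357 to 396 CPM in WT, with 4 called higher. The monocyte list does not separate monocytes from pDC, since it summed to 3360 to 3406 CPM in pDC WT. It also shares Ccr2 with the ESAM-low list. The summed level of 6 ESAM-high markers was 103 to 120 CPM in CKO and 124 to 134 CPM in WT, with 1 called higher and 1 lower, and Esam itself averaged 7.44 CPM in CKO and 32.8 CPM in WT. Lower in CKO was the summed level of 8 macrophage markers, at 130 to 151 CPM in CKO and 232 to 258 CPM in WT (none of 7 tested called by edgeR, 3 at an unadjusted p under 0.05, 2 called lower by DESeq2). The 10 cDC2 markers summed to 614 to 616 CPM in CKO and 804 to 828 CPM in WT, with 2 called higher and 2 lower. Their median log2 fold change was 0.45, so the lower sum does not describe most of them. The 6 ESAM-low markers summed to 1156 to 1757 CPM in CKO and 956 to 1095 CPM in WT, with 1 called higher and a median log2 fold change of -0.39. Of the genes of these 7 lists only the macrophage gene Marco was at 0 in both libraries of a Dec205 group, CKO. The part of these lists in the fall of Cdkn2b was not tested. In bulk RNA, fewer cells that express a gene and less of its RNA per cell cannot be told apart.

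In pDC, Xcr1 averaged 1.07 CPM in CKO and 1.17 CPM in WT, and Esam, which marks the Esamhi subset, had no count in any pDC library of either genotype. The summed level of the 10 B cell markers was 188 to 264 CPM in CKO and 159 to 178 CPM in WT, and that of 6 T cell markers was 132 to 152 CPM in CKO and 70.7 to 95.3 CPM in WT, with 0 genes of either list called by edgeR or DESeq2 and 1 of each at an unadjusted p under 0.05. The 7 monocyte markers summed to 2766 to 3123 CPM in CKO and 3360 to 3406 CPM in WT, with 1 called higher and 4 at an unadjusted p under 0.05, and the 10 cDC2 markers to 2551 to 2591 CPM in CKO and 2587 to 2622 CPM in WT, with 1 called higher. Over all tested genes, edgeR called 1.85% in pDC. The part of these lists in the 19 counts of Cdkn2b in pDC CKO was not tested.

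**Figure D1:**
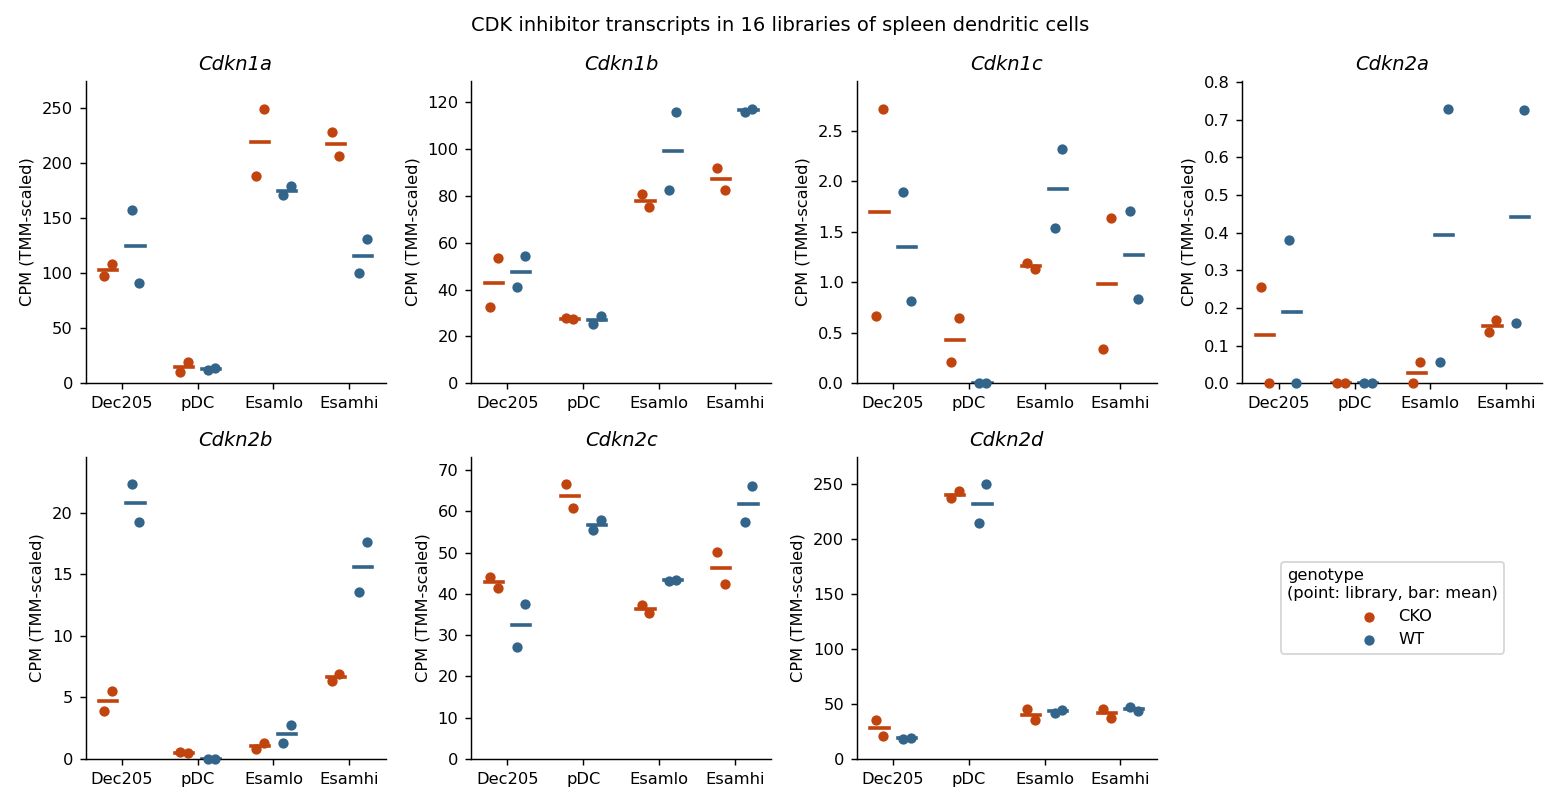
Level of each of the 7 inhibitors in every library, in TMM-scaled CPM, by subset, with CKO (orange) left of WT (blue); points are libraries and bars are means of 2 libraries. Cdkn2b lies at 3.90 and 5.51 CPM in Dec205 CKO, below 22.3 and 19.3 CPM in Dec205 WT, and Cdkn2d lies at 215 CPM or more in the 4 pDC libraries and at 47.4 CPM or less in all others.

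The other INK4 genes were called in no comparison of CKO with WT within a subset in the fit on all 16 libraries. Cdkn2c (gene ID 12580, chromosome 4, 109660876 to 109667189), which encodes p18, had 44.1 and 41.4 CPM in Dec205 CKO and 27.2 and 37.5 CPM in Dec205 WT (log2 fold change 0.40, SE 0.16, edgeR adjusted p = 0.151). In Esamhi it had 50.1 and 42.4 CPM in CKO and 57.5 and 66.0 CPM in WT (log2 fold change -0.42, SE 0.16, edgeR adjusted p = 0.443). The groups did not overlap in either subset, with CKO above WT in Dec205 and below it in Esamhi. Lack of overlap by itself carries little weight here, since its share over all tested genes was not counted. In pDC it had 66.6 and 60.8 CPM in CKO and 55.6 and 57.9 CPM in WT (log2 fold change 0.17, edgeR adjusted p = 0.836), and in Esamlo 37.2 and 35.5 CPM in CKO and 43.2 and 43.3 CPM in WT (-0.25, edgeR adjusted p = 0.807), again with no overlap. The effects in the 4 subsets were not shown to differ (joint test, edgeR adjusted p = 0.174). Without Dec205 WT replicate 2, the library at 37.5 CPM, Cdkn2c was called both in Dec205 (log2 fold change 0.65, edgeR adjusted p = 0.0438) and in the joint test.

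Cdkn2d (gene ID 12581, chromosome 9, 21288410 to 21291407), which encodes p19INK4d and is known from mice to keep differentiated cells out of the cell cycle, had 35.8 and 20.6 CPM in Dec205 CKO and 18.1 and 19.4 CPM in Dec205 WT. Both CKO libraries lay above both WT libraries, and the difference was carried by replicate 1 (log2 fold change 0.59, SE 0.22, edgeR adjusted p = 0.132). With only that replicate on the CKO side Cdkn2d was called (log2 fold change 0.94, edgeR adjusted p = 0.00774). It had 45.5 and 35.2 CPM in Esamlo CKO and 41.8 and 44.6 CPM in Esamlo WT, and 45.8 and 37.0 CPM in Esamhi CKO and 47.4 and 43.8 CPM in Esamhi WT. In these subsets and in pDC the libraries of the genotypes overlapped, with log2 fold changes of -0.10 in Esamlo, -0.14 in Esamhi and 0.05 in pDC (SE 0.20 to 0.21).

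Cdkn2a (gene ID 12578, chromosome 4, 89274471 to 89294653) was near the lower limit of the data in these cells. It lies 11646 bases from Cdkn2b on the same strand and encodes p16INK4a and, in another frame, p19ARF, which stabilises p53; its row sums both transcripts. It had 0 to 14 counts per library and no count in 7 of the 16 libraries, among them all 4 of pDC. Esamhi held 2 and 3 counts in CKO and 3 and 14 counts in WT, Esamlo 0 and 1 in CKO and 1 and 11 in WT, and Dec205 5 and 0 in CKO and 5 and 0 in WT. No difference between genotypes was detectable at this depth. Mtap, the next gene on the other side of Cdkn2a, had group means of 19.9 to 33.7 CPM and was not called in Dec205 (28.5 and 27.8 CPM in CKO, 32.3 and 19.1 CPM in WT, edgeR adjusted p = 0.804).

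Of the CIP genes, Cdkn1a (gene ID 12575, chromosome 17, 29090976 to 29100727), which encodes p21, the inhibitor induced by p53, was called in no subset by edgeR. In Esamhi it had 228 and 206 CPM in CKO, against 100.3 and 131 CPM in WT. Both CKO libraries lay above both WT libraries, by a fitted 1.88-fold (log2 fold change 0.91, SE 0.27, edgeR adjusted p = 0.245). DESeq2 called it (adjusted p = 0.0488), as did edgeR fitted on the 4 Esamhi libraries alone (adjusted p = 0.000968). Esamlo had 188 and 249 CPM in CKO and 171 and 179 CPM in WT (log2 fold change 0.32, edgeR adjusted p = 0.919), and Dec205 had 97.4 and 108 CPM in CKO and 157 and 91.2 CPM in WT (-0.27, edgeR adjusted p = 0.616). The libraries of the genotypes overlapped in Dec205 and not in Esamlo, and in pDC they overlapped at 9.94 and 19.1 CPM in CKO and 12.3 and 13.4 CPM in WT (0.18, edgeR adjusted p = 0.958). The markers of the cDC2 subsets also differed between the Esamhi libraries, where edgeR called 0.877% of all tested genes. The summed level of 6 ESAM-low markers was 1197 to 1295 CPM in Esamhi CKO and 590 to 605 CPM in Esamhi WT, with none called by edgeR, 2 at an unadjusted p under 0.05 and 1 called higher by DESeq2. Much of this sum was Lyz2, at a mean of 735 CPM in CKO and 275 CPM in WT, and the median log2 fold change of the list was 0.77. The summed level of the 6 ESAM-high markers was 1057 to 1160 CPM in CKO and 1365 to 1462 CPM in WT, with 1 called lower, and none of either list was at 0. The 7 neutrophil markers summed to 45.0 to 48.3 CPM in CKO and 9.48 to 9.96 CPM in WT (none called by edgeR, 4 at an unadjusted p under 0.05, 3 called higher by DESeq2), and the 7 monocyte markers to 1048 to 1141 CPM in CKO and 744 to 897 CPM in WT, with 1 called higher. The part of these 4 lists in the level of Cdkn1a or Cdkn2b in Esamhi was not tested. The effect in Esamhi was not shown to differ from that in Dec205 (Dec205 minus Esamhi -1.18, SE 0.38, edgeR adjusted p = 0.184). Reads of Cdkn1a and of AC167363.2, a gene model on the opposite strand that shares 273 bases of exon with it, cannot be told apart, since the kit does not mark strand.

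Cdkn1b (gene ID 12576, chromosome 6, 134920401 to 134925513), which encodes p27, the inhibitor of resting cells, did not pass the test in any subset. In Esamhi it had 92.1 and 82.5 CPM in CKO and 116 and 117 CPM in WT (log2 fold change -0.42, SE 0.21, edgeR adjusted p = 0.783, and 0.0449 with only the 4 Esamhi libraries). In Esamlo it had 80.7 and 75.4 CPM in CKO and 82.5 and 116 CPM in WT (-0.34, SE 0.21, edgeR adjusted p = 0.809). In Dec205 it had 32.7 and 53.4 CPM in CKO and 41.1 and 54.3 CPM in WT (-0.15, edgeR adjusted p = 0.752). The CKO libraries lay below the WT libraries in both cDC2 subsets and overlapped them in Dec205 and pDC. Cdkn1b lies 650243 bases beyond Etv6 on the same chromosome. Of 22 genes within 1000000 bases of Etv6, 16 were tested. In Dec205 edgeR called 3 lower (Bcl2l14, Hebp1 and Fam234b), where 3.34% of all tested genes were called lower. In pDC it called 1 higher (Bcl2l14, 4.18-fold) and 1 lower (Hebp1), where 1.85% of all tested genes were called. Lockd, the gene 3579 bases beyond Cdkn1b, was not called in any subset, with edgeR adjusted p from 0.776 to 1.

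Cdkn1c (gene ID 12577, chromosome 7, 143458339 to 143461050), the imprinted gene of p57, was low, with 0 to 42 counts per library. In pDC it had 4 and 12 counts in CKO and no count in either WT library, as Cdkn2b did. Set against 3 counts shared by the WT libraries it was at least 5.47-fold higher in CKO, and it did not pass the test (edgeR adjusted p = 0.164). It had 13 and 42 counts in Dec205 CKO and 25 and 12 in Dec205 WT, 25 and 20 in Esamlo CKO and 27 and 35 in Esamlo WT, and 5 and 29 in Esamhi CKO and 32 and 16 in Esamhi WT. In these subsets the fitted log2 fold changes were 0.32 in Dec205, -0.73 in Esamlo and -0.35 in Esamhi, each with an SE of 1.01 or 1.02, so that no difference was detectable at this depth. Reads of the antisense gene Gm44732, which shares 625 bases of exon with Cdkn1c, cannot be told apart from its own.

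**Figure D2:**
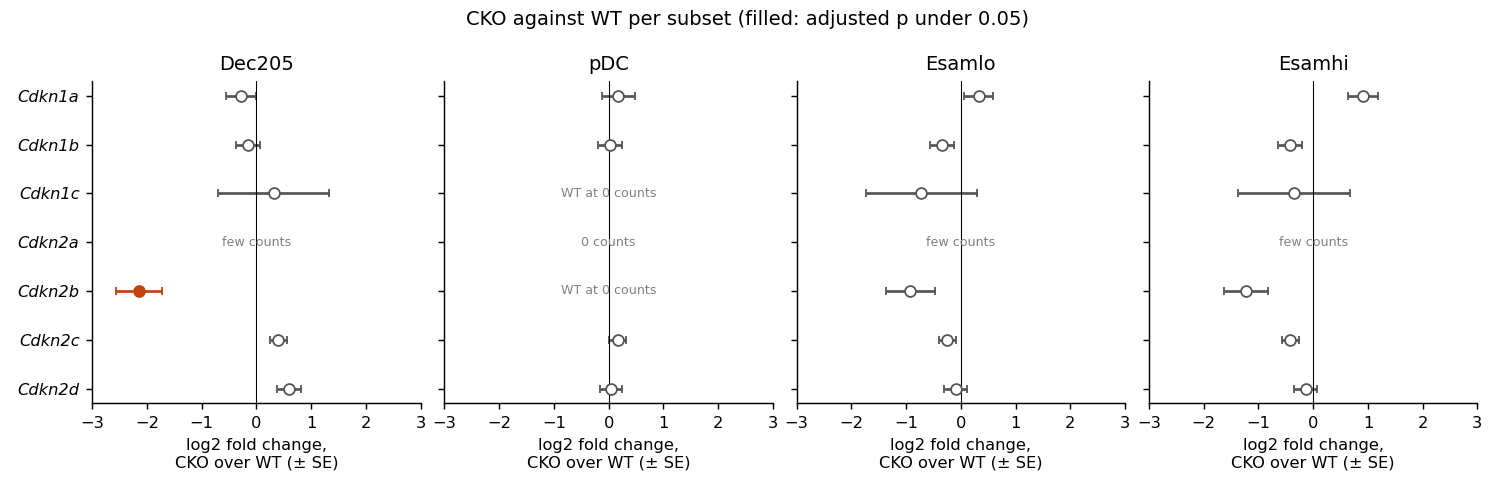
Log2 fold change of CKO over WT with its standard error for each inhibitor in each subset, from edgeR's quasi-likelihood fit on 16 libraries; filled points passed an adjusted p of 0.05, and genes with few counts or a group at 0 counts are named as such. Cdkn2b in Dec205 is the filled point at -2.15, and Cdkn1a in Esamhi lies at 0.91 without passing the test.

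Over the 7 members, the median log2 fold change in Dec205 was -0.15, against 0.17 in pDC and -0.34 and -0.42 in the cDC2 subsets Esamlo and Esamhi, compared with 0.00 to 0.01 over all tested genes. The median in pDC is that of Cdkn2c and is the same with Cdkn1c and Cdkn2b at their lower bounds. No member was called in Esamlo, where edgeR called 0.551% of all tested genes, no member had an unadjusted p under 0.05 and DESeq2 called 0. No member was called in Esamhi, where edgeR called 0.877% of all tested genes, 3 members had an unadjusted p under 0.05 and DESeq2 called 1, Cdkn1a. For the effect averaged over the 4 subsets, edgeR and DESeq2 called 0 members, 0 had an unadjusted p under 0.05, and 5.82% of all tested genes were called.

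Between subsets, Cdkn2d was high in pDC. It had 237 and 244 CPM in pDC CKO and 215 and 249.99 CPM in pDC WT, while no library of another subset exceeded 47.4 CPM. In CKO it was 8.49-fold higher in pDC than in Dec205, 5.95-fold higher than in Esamlo and 5.81-fold higher than in Esamhi (edgeR adjusted p at most 8.33e-07). In WT it was 12.4-fold higher than in Dec205, 5.38-fold higher than in Esamlo and 5.10-fold higher than in Esamhi (edgeR adjusted p at most 1.46e-06). All 6 of these comparisons passed the test, in which 42.6% to 47.6% of all tested genes were called.

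Cdkn1a and Cdkn1b showed the opposite order. Cdkn1a had 9.94 and 19.1 CPM in pDC CKO and 12.3 and 13.4 CPM in pDC WT, and no library of another subset fell below 91.2 CPM. In CKO it was 7.06-fold lower in pDC than in Dec205, 15.0-fold lower than in Esamlo and 14.9-fold lower than in Esamhi, and in WT 9.66-fold, 13.6-fold and 9.004-fold lower in the same order (edgeR adjusted p at most 6.68e-06). Cdkn1b had 27.7 and 27.4 CPM in pDC CKO and 25.4 and 28.6 CPM in pDC WT. It was lower in pDC than in each other subset in both genotypes, by 1.56-fold against Dec205 in CKO (edgeR adjusted p = 0.0322) up to 4.32-fold against Esamhi in WT (edgeR adjusted p = 5.80e-06). The difference from Dec205 was not firm: in CKO it did not pass without Dec205 CKO replicate 2 (log2 fold change of Dec205 over pDC 0.26, edgeR adjusted p = 0.354), pDC CKO replicate 1 (0.0935) or pDC CKO replicate 2 (0.106), with library sizes unscaled by TMM (0.112) or with only the compared libraries fitted (0.107), and in WT it did not pass without Dec205 WT replicate 2 (0.0724) or pDC WT replicate 1 (0.0517).

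**Figure D3:**
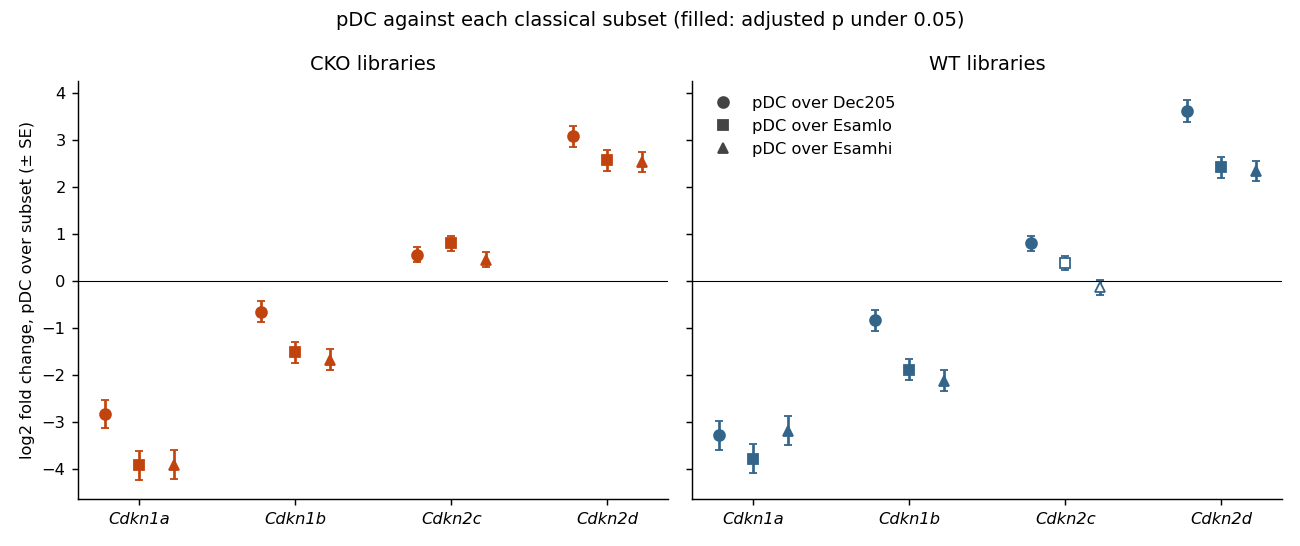
Log2 fold change of pDC over each classical subset, with its standard error, for the 4 inhibitors with at least 188 counts in every library, in CKO (left) and WT (right); filled points passed an adjusted p of 0.05 in edgeR. Cdkn2d lies highest and Cdkn1a lowest in both panels, Cdkn1b lies below 0 throughout, and Cdkn2c is filled in CKO and in 1 of 3 comparisons in WT.

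Cdkn2c was the most even member, with group means from 32.4 to 63.7 CPM. In CKO it was higher in pDC (63.7 ± 4.09 CPM) than in Esamhi (46.2 ± 5.48 CPM), Dec205 (42.8 ± 1.92 CPM) and Esamlo (36.3 ± 1.23 CPM; SD, n = 2 each), with edgeR adjusted p of 0.0275, 0.00941 and 0.00101. The difference from Dec205 in CKO did not pass without Dec205 CKO replicate 2 (0.0516) or pDC CKO replicate 1 (0.0741), nor that from Esamhi without pDC CKO replicate 1 (0.155), pDC CKO replicate 2 (0.0562) or Esamhi CKO replicate 2 (0.207). In WT the order was Esamhi (61.8 ± 6.06 CPM), pDC (56.7 ± 1.64 CPM), Esamlo (43.3 ± 0.118 CPM) and Dec205 (32.4 ± 7.33 CPM). Neighbours in this WT order were not called as different, with edgeR adjusted p of 0.542, 0.0575 and 0.0581 from the top, while Esamhi and Dec205 were (0.000486), as were pDC and Dec205 (0.000947).

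Among the classical subsets, Cdkn1b was lower in Dec205 than in the cDC2 subsets in both genotypes. It averaged 43.0 ± 14.6 CPM in Dec205 CKO, 78.1 ± 3.73 CPM in Esamlo CKO and 87.3 ± 6.81 CPM in Esamhi CKO (SD, n = 2 each; edgeR adjusted p = 0.00868 and 0.00259). In WT it averaged 47.7 ± 9.37 CPM in Dec205, 99.1 ± 23.5 CPM in Esamlo and 117 ± 0.915 CPM in Esamhi (edgeR adjusted p = 0.00243 and 0.000507). Esamlo and Esamhi were not called as different in CKO (edgeR adjusted p = 0.923) or WT (0.649). Without Dec205 CKO replicate 1 the difference from Esamlo in CKO did not pass (edgeR adjusted p = 0.0693).

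Cdkn1a differed between the classical subsets in the CKO libraries. There it was lower in Dec205 (103 ± 7.45 CPM) than in Esamlo (219 ± 43.1 CPM) and Esamhi (217 ± 15.0 CPM), with edgeR adjusted p of 0.00826 and 0.00756. In WT, Esamlo (175 ± 5.29 CPM), Dec205 (124 ± 46.5 CPM) and Esamhi (116 ± 21.6 CPM) were not called as different, with edgeR adjusted p of 0.183 for Dec205 against Esamlo, 0.81 for Dec205 against Esamhi and 0.261 for Esamlo against Esamhi. Without Dec205 CKO replicate 1 or Esamlo CKO replicate 2 the difference between Dec205 and Esamlo in CKO did not pass (edgeR adjusted p = 0.0504 and 0.0754). Whether the subsets differ more in CKO than in WT is the test of the difference in CKO effects, which did not pass for Cdkn1a (edgeR adjusted p = 0.406 over the 4 subsets).

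Cdkn2b separated the cDC2 subsets. In WT its order was Dec205 (20.8 ± 2.15 CPM), Esamhi (15.6 ± 2.91 CPM), Esamlo (2.01 ± 1.00 CPM) and pDC (0 CPM). Dec205 and Esamhi were not called as different (edgeR adjusted p = 0.444), while Esamlo was lower than Esamhi (log2 fold change -2.96, SE 0.43, edgeR adjusted p = 0.00196) and than Dec205 (adjusted p = 0.000107). In CKO the order was Esamhi (6.62 ± 0.44 CPM), Dec205 (4.70 ± 1.14 CPM), Esamlo (1.06 ± 0.344 CPM) and pDC (0.505 ± 0.0328 CPM). Esamlo was lower than Esamhi there too (log2 fold change -2.65, SE 0.44, edgeR adjusted p = 0.00784), though not without Esamlo CKO replicate 1 (0.125) or Esamhi CKO replicate 2 (0.0728). Dec205 and Esamhi in CKO were not called as different (edgeR adjusted p = 0.37), nor were pDC and Esamlo (0.107), while Dec205 was 4.45-fold higher than Esamlo (0.00272). In pDC, Cdkn2b was lower than in Dec205 by 9.18-fold and than in Esamhi by 12.9-fold in CKO, and in WT by at least 266-fold against Dec205, 25.8-fold against Esamlo and 199.5-fold against Esamhi (edgeR adjusted p at most 0.000174). Cdkn2b was the 1 member of 7 called between Esamlo and Esamhi in each genotype, where 3.02% of all tested genes were called in CKO and 5.81% in WT.

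Of the remaining orders, Cdkn2d was lower in Dec205 WT (18.8 ± 0.899 CPM) than in Esamlo WT (43.2 ± 2.01 CPM; edgeR adjusted p = 0.001) and Esamhi WT (45.6 ± 2.52 CPM; 0.000541). In CKO, Dec205 (28.2 ± 10.8 CPM), Esamlo (40.4 ± 7.24 CPM) and Esamhi (41.4 ± 6.29 CPM) were not called as different, with edgeR adjusted p of 0.0847 for Dec205 against Esamlo and 0.061 for Dec205 against Esamhi. Cdkn1c was called lower in pDC WT, at 0 counts, than in the other WT subsets, by at least 16.2-fold against Esamhi, 17.3-fold against Dec205 and 24.7-fold against Esamlo (edgeR adjusted p at most 0.00338). Among the 7 members, 5 were called between Dec205 and pDC in CKO and 6 in WT, where 44.6% and 47.6% of all tested genes were called. Between pDC and Esamlo 4 were called in CKO and 5 in WT (42.6% and 45.7% of all tested genes), and between pDC and Esamhi 5 in each genotype (45.6% and 47.1%). Between Dec205 and Esamlo 3 were called in each genotype (33.3% in CKO and 34.2% in WT), and between Dec205 and Esamhi 2 in CKO and 3 in WT (38.3% and 37.4%).

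Levels of different genes are comparable only per length, here as CPM per kilobase of exon. On that scale the 7 inhibitors summed to 187 ± 3.29 in pDC CKO and 178 ± 17.1 in pDC WT, the highest sums of the subsets, against 76.5 ± 0.864 in Dec205 CKO and 85.2 ± 9.89 in Dec205 WT, the lowest (SD, n = 2 each). Cdkn2d alone made up 81.6 ± 0.115% of the sum in pDC CKO and 82.8 ± 0.91% in pDC WT, and Cdkn2c most of the rest (12.7 ± 1.04% and 11.9 ± 0.798%). Cdkn1a was the most abundant inhibitor in Esamlo CKO, Esamlo WT and Esamhi CKO, with 51.4 ± 7.37%, 42.0 ± 2.09% and 47.3 ± 0.751% of the sum. In Esamhi WT the libraries disagreed: Cdkn1a held 24.4% and Cdkn2d 26.0% in replicate 1, and Cdkn1a 28.6% and Cdkn2d 21.6% in replicate 2.

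The share of the 4 INK4 genes in the per-length sum was 94.5 ± 0.938% in pDC CKO and 94.6 ± 0.112% in pDC WT. In Esamhi it was 38.3% and 36.6% in the CKO libraries and 52.9% and 51.1% in the WT libraries. Both CKO libraries lay below both WT libraries by more than the spread within either group, with the CIP gene Cdkn1a above WT and the INK4 genes Cdkn2b and Cdkn2c below it in both CKO libraries, while the CIP gene Cdkn1b was also below WT, which by itself raises the share. In Dec205 it was 54.7% and 42.8% in CKO and 41.3% and 51.4% in WT, so the genotypes overlapped, while the share of Cdkn2b alone was 4.43 ± 1.12% in Dec205 CKO and 17.6 ± 0.226% in Dec205 WT (SD, n = 2 each). These shares were not tested.

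**Figure D4:**
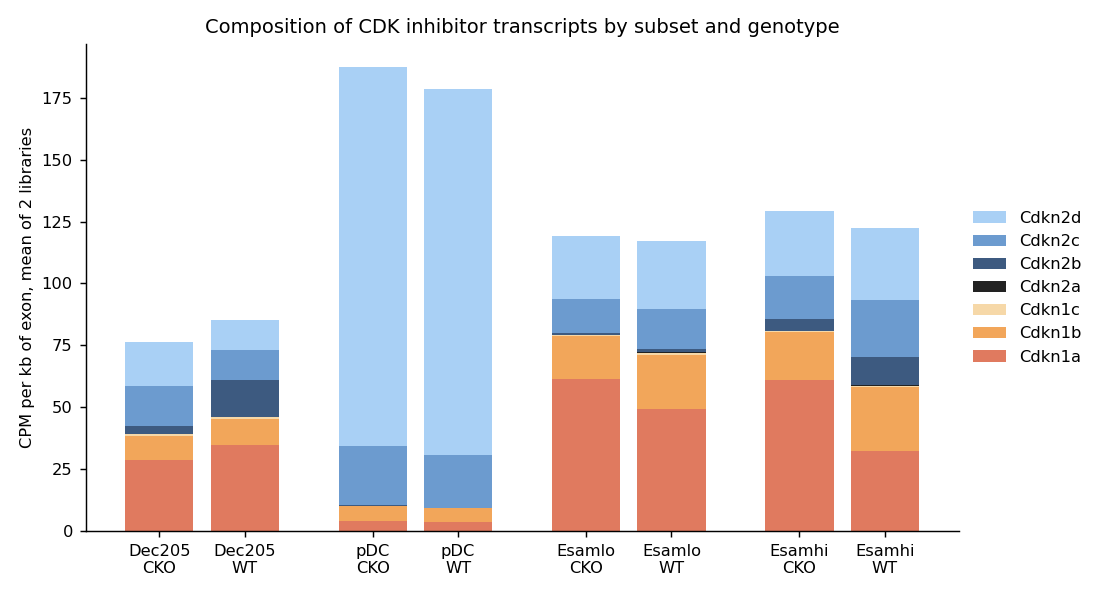
Summed level of the 7 inhibitors per subset and genotype, as mean CPM per kilobase of exon of 2 libraries, stacked by gene, with INK4 genes in blue shades and black (top) and CIP genes in orange and red shades (bottom). Cdkn2d fills most of both pDC bars (81.6% in CKO and 82.8% in WT), and the Cdkn2b layer is thinner in Dec205 CKO (4.43%) than in Dec205 WT (17.6%).

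No partner of the INK4 proteins was called in the 4 subsets, where edgeR called 0.551% to 6.78% of all tested genes. Of Cdk4, Cdk6, Ccnd1, Ccnd2 and Ccnd3, edgeR and DESeq2 called 0 in each of the 4 subsets, with an unadjusted p under 0.05 for 2 in Dec205, 1 in Esamhi and 0 in the others. In Dec205, Cdk4, the catalytic partner, had 136 and 117 CPM in CKO and 116 and 119 CPM in WT (edgeR adjusted p = 0.673). Ccnd2, a D-type cyclin, had 145 and 82.0 CPM in Dec205 CKO and 55.5 and 74.5 CPM in Dec205 WT (0.138), and Ccnd1 had 34.8 and 42.9 CPM in CKO and 54.3 and 64.8 CPM in WT (0.184). The groups did not overlap for Ccnd1 and Ccnd2, which lay on opposite sides. Cdk6, at 27.4 and 18.6 CPM in Dec205 CKO and 24.3 and 20.8 CPM in Dec205 WT, and Ccnd3, at 252 and 243 CPM in CKO and 247 and 214 CPM in WT, overlapped between the genotypes (0.984 and 0.682).

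Of 7 tested partners of the CIP proteins, 3 were called higher in pDC CKO and 4 were not called. Over all tested genes, 1.47% were called higher there. The median log2 fold change of the 7 partners was 1.55, compared with 0.01 over all tested genes. Ccnb2, a B-type cyclin of mitosis, had 12.2 and 9.64 CPM in CKO and 2.78 and 2.24 CPM in WT (4.34-fold, edgeR adjusted p = 0.00165). Cdk1, the mitotic kinase, had 5.60 and 4.45 CPM in CKO and 1.87 and 0.762 CPM in WT (3.83-fold, 0.00388), and Ccna2, the A-type cyclin, had 9.51 and 14.1 CPM in CKO and 3.10 and 4.93 CPM in WT (2.94-fold, 0.0137). Both CKO libraries lay above both WT libraries for each of the 3. Cdk2, which is not confined to dividing cells, had 33.0 and 23.3 CPM in pDC CKO and 15.9 and 29.4 CPM in pDC WT and overlapped (0.761).

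Of 25 tested proliferation genes, 9 were called higher in pDC CKO and none lower, where 1.47% of all tested genes were called higher. Top2a, a topoisomerase of dividing cells, had 26.5 and 14.9 CPM in CKO and 3.26 and 2.64 CPM in WT (7.02-fold, edgeR adjusted p = 0.000287), and Ube2c, a ubiquitin-conjugating enzyme of mitosis, had 10.2 and 8.09 CPM in CKO and 1.12 and 0.102 CPM in WT (0.000826). Bub1 and Cenpf, genes of the kinetochore, had 2.43 and 3.43 CPM and 6.92 and 9.16 CPM in CKO, against 0 and 0.457 CPM and 2.03 and 0.254 CPM in WT (0.0197 and 0.011). Of the pocket protein and E2F list, E2f7 (1.90 and 1.18 CPM in CKO, 0.0534 and 0 CPM in WT) and E2f2 (5.71 and 2.46 CPM in CKO, 0.962 and 1.27 CPM in WT) rose, 2 of 13. Averaged over the subsets, E2f2 of this list rose (1.60-fold, edgeR adjusted p = 0.0273). Within subsets E2f2 was called in pDC alone, with log2 fold changes of 1.86 in pDC, 0.39 in Dec205, 0.20 in Esamlo and 0.24 in Esamhi. Its effects were not shown to differ between subsets (joint test, edgeR adjusted p = 0.28). Ube2c, Top2a and Kif11 of the proliferation genes also rose on average (1.73-fold, 1.46-fold and 1.47-fold). For these 3 proliferation genes the effect differed between subsets (joint test, edgeR adjusted p = 0.00407, 0.00189 and 0.00229): the log2 fold changes were 3.91, 2.81 and 2.52 in pDC, 0.35, 0.05 and 0.58 in Dec205, -0.58, -0.22 and -0.27 in Esamlo and -0.52, -0.46 and -0.61 in Esamhi, with CKO below WT without overlap and without a call in both cDC2 subsets. On average Mcm4, a subunit of the replicative helicase, fell (edgeR adjusted p = 0.033), and Mcm3 of the same complex rose in Dec205 (1.41-fold, 0.0496). Rb1, the main pocket protein, had 69.3 and 51.9 CPM in pDC CKO and 84.2 and 69.4 CPM in pDC WT and was not called (0.516). The summed level of the 25 proliferation genes was 468 to 532 CPM in pDC CKO and 346 to 365 CPM in pDC WT, against 1410 to 2268 CPM over the libraries of the classical subsets.

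In pDC no abundant inhibitor was called beside these genes. Cdkn2d, Cdkn2c and Cdkn1b had log2 fold changes of 0.05, 0.17 and 0.03, with standard errors of 0.20, 0.15 and 0.22, and edgeR adjusted p from 0.836 to 1. The sums of the proliferation genes also differed in Esamhi, at 1582 to 1688 CPM in CKO and 2244 to 2268 CPM in WT, where Cdkn1a had 228 and 206 CPM in CKO, and 0 of 25 genes were called by edgeR, 8 had an unadjusted p under 0.05 and DESeq2 called 2 lower. The part of this difference in the level of Cdkn1a was not tested.

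Of 23 upstream regulators of the inhibitors, edgeR called 3 lower in Dec205 and none higher, where 3.34% of all tested genes were called lower. DESeq2 called 3 lower and 1 higher. The part of these genes in the fall of Cdkn2b in Dec205 was not tested. Cbx7 and Rnf2 belong to the Polycomb repressive complex that is known to silence the Cdkn2a and Cdkn2b locus. Cbx7 had 16.6 and 24.7 CPM in CKO and 44.9 and 37.5 CPM in WT (edgeR adjusted p = 0.0157), and Rnf2 had 23.5 and 36.9 CPM in CKO and 49.0 and 63.4 CPM in WT (0.0107). Foxo1, a forkhead factor known to activate Cdkn1b, had 82.5 and 89.3 CPM in CKO and 129 and 132 CPM in WT (0.02). For each of the 3 genes both CKO libraries lay below both WT libraries. Tgfbr2, the receptor of the growth factor that induces Cdkn2b, was higher in CKO on average over the subsets (1.32-fold, edgeR adjusted p = 0.0137), with 132 and 112 CPM in Dec205 CKO and 93.4 and 115 CPM in Dec205 WT, where it was not called (0.467).

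Of 19 tested p53 targets other than Cdkn1a, edgeR called 0 in Esamhi, 2 had an unadjusted p under 0.05, and DESeq2 called 1 higher and 1 lower. Trp53 had 84.2 and 86.7 CPM in Esamhi CKO and 99.3 and 99.7 CPM in Esamhi WT (edgeR adjusted p = 0.634). Averaged over the subsets, 2 targets were called, as were 5.82% of all tested genes. Bbc3, a pro-apoptotic gene, was 1.35-fold higher in CKO (edgeR adjusted p = 0.049). It had 41.3 and 41.0 CPM in Esamhi CKO and 20.99 and 21.5 CPM in Esamhi WT. Sesn2, a stress-induced inhibitor of growth signals, was 1.22-fold lower (edgeR adjusted p = 0.0102), with 213 and 220 CPM in Esamhi CKO and 307 and 300 CPM in Esamhi WT.

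Other genes shared the pattern of the members over the 8 groups. Likeness was the root mean square difference of the centred group means on the log2 CPM scale, over the 10147 genes compared, and it is a description of group means. Closest to Cdkn2d was Fam214a (0.196), at 179.8 CPM in pDC CKO and 169 CPM in pDC WT and at most 43.9 CPM elsewhere, followed by Dhcr7 (0.243), an enzyme of cholesterol synthesis, and Zcchc24 (0.256). Closest to Cdkn1b were Hsd17b4 (0.0683), a peroxisomal enzyme, Actr2 (0.122), a subunit of the actin-branching complex, and Rfwd3 (0.151), and closest to Cdkn1a were Serpina3i (0.229), Rab20 (0.232) and Dusp2 (0.258). Cdkn2b had no close match: Tnfrsf9, a costimulatory receptor, came first at 0.708, ahead of Prnp (0.758) and Arhgap28 (0.881). The nearest genes to Cdkn1c (Stmn1, Cdc45 and Traip) and Cdkn2a (Tmem64, Arl5b and Arf2) rest on the few counts of those members, and Cdkn2c varied too little over the groups to be matched.

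Neighbours of Cdkn2d on chromosome 9 differed from each other. Ap1m2, an adaptor subunit of clathrin coats that lies 2868 bases beyond it, was likewise highest in pDC, at 17.1 ± 0.465 CPM in CKO and 17.5 ± 0.779 CPM in WT, against group means of 0.271 to 1.86 CPM elsewhere (SD, n = 2). Kri1, which lies 441 bases from Cdkn2d on the other side, had group means from 7.42 to 14.8 CPM over all 8 groups.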

How the data were processed

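RNA of 16 libraries was sequenced after sorting, with TRIzol LS, PicoPure columns and a SMART-seq v4 kit, which marks neither strand nor molecules, per the labels' protocols. The authors deposited raw counts per gene in 1 table; bcl2fastq, Trimmomatic 0.36, Bowtie2 2.2.9 and the build mm10 are named in the submitters' processing notes, while no source used here gives the counter, its strand setting or its annotation. Counts were tested with edgeR 4.0.16 (R 4.3.3; TMM scaling, filterByExpr over the 8 groups, quasi-likelihood F test, robust, 1 coefficient per group, 8 residual degrees of freedom), with Benjamini-Hochberg adjustment over 13790 genes and a threshold of 0.05. CPM used TMM-scaled library sizes, and CPM per kilobase used the union of exons of GENCODE M21. A group at 0 was given a floor of 3 counts over the group. Standard errors came from the quasi-likelihood fit and include the spread between libraries, while floors cover counting error only.

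Groups followed the titles of the samples. CKO was compared with WT in each subset, averaged and between subsets (a joint test and pairs), and subsets were compared in pairs within each genotype. The text names all members, the called genes of each pathway list (at most 4 per comparison, by absolute log2 fold change) and Cdk4, Cdk6, Ccnd1, Ccnd2, Ccnd3, Cdk2, Rb1, Trp53 and Etv6. Alternatives were other size factors, no filter, no robust fit, a replicate block, fits on the compared libraries alone, DESeq2 1.42.0 and leaving out each library. Replicate numbers did not pair CKO with WT libraries within a subset. Whether they pair the subsets of a genotype, as from a shared animal, was not checked, and the fits do not model such a pairing. The script was tested on simulated data. The genes changed there, in Dec205 CKO only, had higher mean levels than Cdkn2b, Cdkn1c and Cdkn2a, so the simulation does not cover changes at the levels of these members. The members and the gene lists were chosen with earlier results of these data known.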

Additional observations from a re-analysis of the deposited data

Results flagged for a closer look

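The effect of CKO on Cdkn2b differed between subsets in the joint test of an interaction (edgeR adjusted p = 0.00906) and in the pairs Dec205 minus pDC (0.00263), pDC minus Esamhi (0.00893) and pDC minus Esamlo (0.0183, and 0.0522 to 0.0756 in the fits that end this call, 4 without 1 library and 1 with a replicate block), where 2.41%, 1.18% and 0.682% of all tested genes were called. Cdkn2b had 3.90 and 5.51 CPM in Dec205 CKO and 22.3 and 19.3 CPM in Dec205 WT, and 10 and 9 counts in pDC CKO against no count in pDC WT. These tests of a difference share the pDC libraries, and their fitted sizes rest on the WT group at 0 counts.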

How the results depend on the processing

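Over 79 results of single members, 939 values were recomputed: 888 kept their direction and side of the threshold, 27 fell short of it, 6 passed it and 18 reversed. The number of members called moved from 1 to 0 in Dec205 and in pDC when only the compared libraries were fitted, and from 0 to 3 in Esamhi (Cdkn1a, Cdkn1b and Cdkn2b), where DESeq2 called 1. Between Esamlo and Esamhi in WT it moved from 1 to 3 with only those libraries and to 2 with DESeq2. Leaving out single libraries gave 0 to 2 in Dec205, 0 to 1 in pDC, 1 to 2 in the joint test, 3 to 5 for Dec205 against pDC in CKO and 0 to 1 for Esamlo against Esamhi in CKO. The cause was not tested. All reversals came from leaving out a library, and none passed the threshold. The ranges of log2 fold change over all alternatives, left-out libraries among them, were -0.61 to 0.18 for Cdkn1a, -0.54 to 0.17 for Cdkn1b, -1.01 to 1.06 for Cdkn1c and -4.75 to 4.32 for Cdkn2a in Dec205. They were -0.37 to 0.57 for Cdkn1a, -0.0494 to 0.109 for Cdkn1b and -0.0514 to 0.153 for Cdkn2d in pDC, -0.29 to 0.0682 for Cdkn2d in Esamlo, and -1.88 to 0.36 for Cdkn1c and -0.303 to 0.00696 for Cdkn2d in Esamhi. On average over the subsets they were -0.0769 to 0.037 for Cdkn2c and -0.0125 to 0.186 for Cdkn2d. Over all genes, edgeR called 935 genes in Dec205, 255 in pDC, 76 in Esamlo and, for Esamhi, 121. In the same order DESeq2 called 1712, 553, 248 and 301, fits on the compared libraries 136, 91, 126 and 578, and the replicate block 739, 169, 48 and 66. The deviations of same-numbered libraries correlated at 0.0169, 0.00766, -0.00724 and -0.0692. Under the block, Cdkn2c in pDC against Esamhi in CKO (adjusted p = 0.066) and the Cdkn2b effect of pDC minus Esamlo (0.0756) no longer passed. With 2 libraries per group and 0 to 42 counts, Cdkn1c and Cdkn2a are limited by depth.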
